A study of Mus musculus with 141 samples.

Results

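The 36 genes described here mark the epithelial state, and they were chosen by name as genes of epithelial adhesion and identity. All 36 were found among the 36558 genes of the inguinal white adipose tissue (iWAT) tables, through their Ensembl identifiers. Epithelial cells line ducts and surfaces, and they are held together by E-cadherin, desmosomes and tight junctions, the last of which seal the space between neighbouring cells through claudins. A small set of transcription and splicing factors keeps cells in this state, and repressors of the Zeb and Snail families switch it off. Fat cells are not epithelial, but in female mice the mammary ducts grow into the inguinal fat pad and run through it.

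The mice belong to the HMDP, a panel of classical and recombinant inbred strains. All were given a diet rich in fat and sucrose (HF/HS) from the age of 8 weeks on, stayed on it for 8 weeks and were fasted for 4 h before collection. RNA-seq of subcutaneous adipose tissue is present for 67 females and 74 males of 82 strains, with 1 library per sex and strain, so that strains serve as the replicates, and 59 strains have both sexes. The study's methods name 1 to 4 samples per sex and strain for this tissue, and its matched set of strains was slightly smaller. No group on another diet is analysed here. By the strain names in the labels, the families are the BXD recombinant inbred strains (32 female and 34 male libraries), the AXB/BXA strains (9 and 11), the CXB strains (3 and 3), the BXH strains (2 and 3) and the non-recombinant inbred strains (21 and 23). AXB19/PgnJ, AXB19a/PgnJ and AXB19b/PgnJ share a strain number in their names and were counted as separate strains, so they may not be independent replicates. BXD24/TyJ-Cep290<rd16>/J carries the rd16 allele of *Cep290* in its name, and the inbred strain BTBR T<+> tf/J carries T<+> and tf in its name.

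Libraries held 6269001 to 78562464 estimated counts (median 30233062), and 3 counts, taken as the floor of detection, stood for 0.0992 counts per 1000000 counts of the library (CPM) at the median depth and 0.479 CPM in the shallowest library. Floors cover counting error only. The summed level of 5 adipocyte genes was at least 3225 CPM in every library. The summed level of 4 Y-linked genes went against the label in the library labelled male of NZW/LacJ (7.85 CPM, against 177 to 535 in the other 73 libraries labelled male) and in the library labelled female of BXD69/RwwJ (382 CPM). In the library labelled female of BXD34/TyJ these genes were split. *Uty* (953 CPM) and *Kdm5d* (117.5 CPM) lay above every library labelled male, of which the highest had 56.1 and 74.9 CPM, while *Ddx3y* (3.03 CPM) and *Eif2s3y* (4.99 CPM) were far below the lowest of those 73 libraries (78.2 and 38.003 CPM), so that they do not give the sex of this library. The other 65 libraries labelled female had sums of 5.45 to 32.8 CPM. The BXD34/TyJ library is also the shallowest. No library was relabelled, and both BXD strains have no male library, so they are outside the matched comparison.

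To ask how the epithelial genes differ between the sexes, the female and the male library of the 59 matched strains were compared in a model with strain and sex. All 36 genes passed the filter on low counts, and 36 of 36 passed the adjusted threshold of 0.05 with a higher female level, against 28.4% of all 16765 genes tested (quasi-likelihood test of edgeR, Benjamini-Hochberg adjusted). No member was lower in females, as 29.8% of all genes were. The median log2FC (female vs. male, from TMM-scaled counts) of the members was 5.52, with a range from 1.35 for *Grhl1* to 8.03 for *Tmprss2*, beside a median of 0.01 over all genes tested. The adjusted p of the members lay between 6.33e-27 and 3.1e-13 in this test with Benjamini-Hochberg adjustment. In 33 of the 36 members the female library was the higher one in at least 55 of the 59 strains, as in 4.01% of all genes. In these bulk samples, fewer epithelial cells and less RNA per cell cannot be told apart.

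The count of 36 was kept with DESeq2, limma-voom, other scalings, TPM values, no filter, and without NZW/LacJ and PL/J, and with at least 10 counts in every library of 1 sex it was 33 of 33. The size of the log2FC was less fixed than its sign. In 15 of the 36 members the male median lay at or under the floor, so that a fitted fold depends on the prior count. Of these members the female median was 7.07 to 635 times the floor. Without the strain term the median log2FC of the members was 4.49, and it was 2.36 on log2(TPM + 1).

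**Figure D1:**
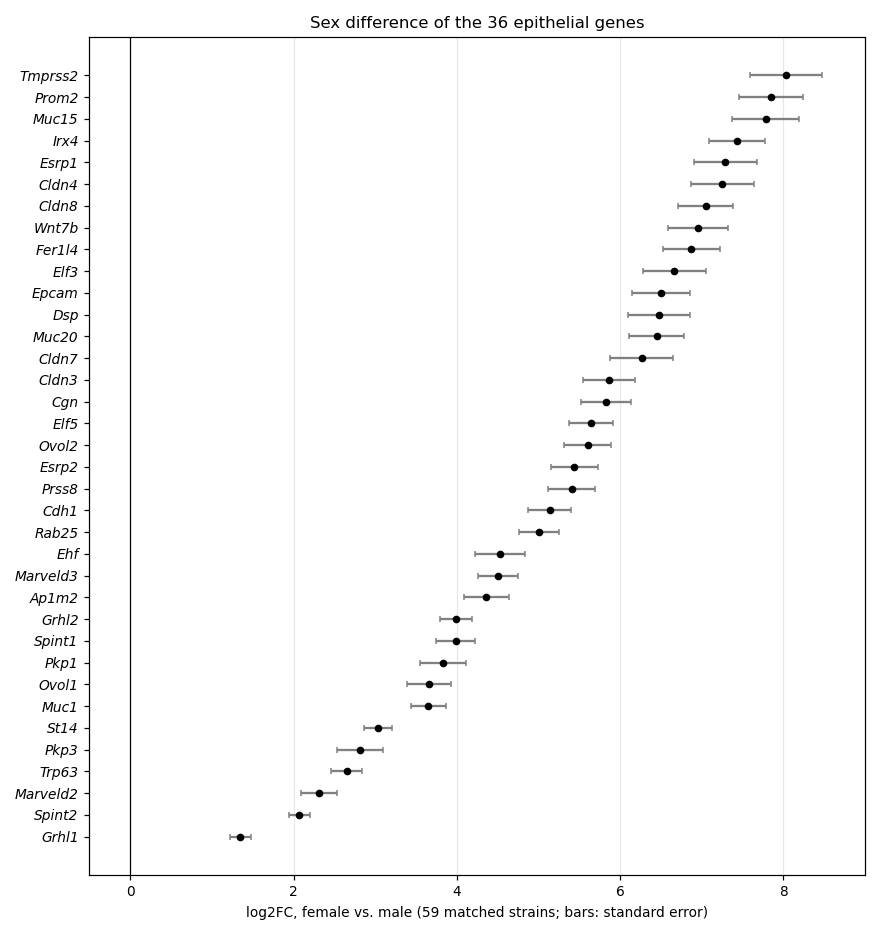
The log2FC (female vs. male) of each of the 36 genes over the 59 matched strains, with its standard error (SE), derived from the F value, as a bar, ordered by size. Every value lies to the right of 0, from 1.35 for *Grhl1* to 8.03 for *Tmprss2*.

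Both adhesion genes were among those present in nearly every female library. *Epcam* (ENSMUSG00000045394, chromosome 17, 87635979 to 87651129, plus strand) encodes an adhesion molecule of the epithelial cell surface, and *Cdh1* (chromosome 8, 106603351 to 106670246, plus strand) encodes E-cadherin, the core of the adherens junction. All positions of genes are those of GRCm38. In female libraries *Epcam* ranged from 0.0341 to 322 CPM with a median of 97.8 (67 libraries), and in male libraries from 0.0304 to 76.6 CPM with a median of 1.16 (74 libraries). The lowest female value is that of BXD69/RwwJ, and the highest male value that of NZW/LacJ, both libraries whose Y-linked level did not match the label. The log2FC of *Epcam* was 6.50 (SE 0.355), with the female higher in 58 of 59 strains. *Cdh1* ranged from 0.989 to 276 CPM with a median of 69.3 in females and from 0.107 to 63.9 CPM with a median of 1.77 in males, and its log2FC was 5.14 (SE 0.263, 58 of 59 strains). In PL/J the male library was the higher for both genes, and in the other 58 matched strains the female one. The promoter window of *Epcam* (RefSeq, GRCm38.p6, chr17:87635729-87636028, plus strand) is shown as the example of the E-box letters described with the transcription factors, and its capitals mark CAGGTG or its reverse complement.
Epcam promoter: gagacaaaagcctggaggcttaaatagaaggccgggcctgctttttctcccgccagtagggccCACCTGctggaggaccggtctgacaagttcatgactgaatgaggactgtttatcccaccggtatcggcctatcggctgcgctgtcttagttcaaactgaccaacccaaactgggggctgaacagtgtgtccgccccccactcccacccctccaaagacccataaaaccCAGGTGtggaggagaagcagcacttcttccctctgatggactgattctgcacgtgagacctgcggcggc

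Claudins are the sealing proteins of the tight junction, and the 4 measured here were all higher in females, with log2FC from 5.87 to 7.25 (adjusted p from 2.72e-26 to 8.46e-22, quasi-likelihood test of edgeR, Benjamini-Hochberg adjusted). *Cldn4* (chromosome 5, 134945119 to 134946934, minus strand) ranged from 0 to 101.8 CPM with a median of 22.1 in females and from 0 to 22.8 CPM with a median of 0.0498 in males. Its neighbour *Cldn3* (chromosome 5, 134986214 to 134987472, plus strand) had a female median of 13.2 CPM and a male median of 0.156 CPM, with log2FC 5.87 (SE 0.319). *Cldn4* exceeded 3 counts in 65 of 67 libraries from females and 27 of 74 from males, so that most males were at the floor. *Cldn7* had a median of 7.05 CPM in females and 0.0328 CPM in males, with a log2FC of 6.26 (SE 0.386). *Cldn8* had no counts in 41 of 74 male libraries and a highest male value of 4.56 CPM, in PL/J, while its female median was 6.41 CPM. Its female library had the higher level in 59 of 59 strains.

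The other tight junction genes were higher in females by a log2FC of 2.31 to 5.83. *Marveld2* encodes tricellulin, which seals the corners where neighbouring cells meet, *Marveld3* a further tight junction membrane protein, and *Cgn* cingulin, a cytoplasmic plaque protein. *Cgn* ranged from 0.205 to 83.98 CPM with a median of 20.4 in females and from 0 to 17.7 CPM with a median of 0.225 in males, with log2FC 5.83 (SE 0.304). *Marveld3* had medians of 5.20 and 0.210 CPM and a log2FC of 4.50 (SE 0.245). *Marveld2* was above 3 counts in all 67 female and all 74 male libraries. It ranged from 1.24 to 23.6 CPM with a median of 7.28 in females and from 0.178 to 8.80 CPM with a median of 1.94 in males, a broad overlap, with log2FC 2.31 (SE 0.218) and the female higher in 54 of 59 strains. Its highest male library was that of BXD40/TyJ, whereas most members have theirs in NZW/LacJ.

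The desmosome ties the keratin filaments of adjacent cells together, through desmoplakin (*Dsp*) and the plakophilins *Pkp1* and *Pkp3*. *Dsp* ranged from 0 to 76.3 CPM with a median of 27.6 in females and from 0 to 40.1 CPM with a median of 0.156 in males, with log2FC 6.47 (SE 0.380). The log2FC of the plakophilins was 3.83 (SE 0.285) for *Pkp1* and 2.82 (SE 0.279) for *Pkp3*. *Pkp1* had the higher level in females in 57 and *Pkp3* in 54 of 59 strains. The sexes overlapped for both, as the male medians of 0.960 and 0.801 CPM lay above the lowest female values, 0.716 and 0.682 CPM in BXD69/RwwJ. Single male libraries other than NZW/LacJ and PL/J came near the female medians of 14.4 and 13.01 CPM. These were CE/J with 11.8 CPM of *Pkp1* and AXB19b/PgnJ with 11.97 CPM of *Pkp3*.

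Epithelial cells carry serine proteases on their surface, among them matriptase (*St14*), prostasin (*Prss8*) and *Tmprss2*, and the Kunitz-type inhibitors *Spint1* and *Spint2* hold matriptase and prostasin in check. *Tmprss2* (chromosome 16, 97564682 to 97611195, minus strand) had the highest log2FC of the members, 8.03 (SE 0.438), and ranged from 0 to 296 CPM with a median of 62.96 in females. In males it ranged from 0 to 113.5 CPM with a median of 0.0350, with no counts in 31 of 74 libraries. *Prss8* had a log2FC of 5.41 (SE 0.287) at medians of 4.94 and 0.0769 CPM. *St14* was above 3 counts in every library of both sexes, with medians of 28.6 and 3.31 CPM and a log2FC of 3.04 (SE 0.176). The log2FC of the inhibitors was 3.99 (SE 0.238) for *Spint1* and 2.07 (SE 0.126) for *Spint2*. *Spint2* (chromosome 7, 29256323 to 29281912, minus strand) ranged from 5.85 to 142.2 CPM with a median of 56.2 in females and from 3.86 to 55.7 CPM with a median of 14.1 in males, so that its sexes overlapped although every male library held it above 3 counts. The adjusted p of these 5 genes lay between 1.07e-24 and 5.43e-22 (quasi-likelihood test of edgeR, Benjamini-Hochberg adjusted).

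Mucins are glycosylated proteins of the apical surface. *Muc15* (chromosome 2, 110721340 to 110739527, plus strand) had the widest spread of all 36 members among females, with an SD of 2.02 on the log2 CPM scale. It ranged from 0.0682 to 736 CPM with a median of 39.2 in females and from 0 to 36.05 CPM with a median of 0.0695 in males (log2FC 7.78, SE 0.406). Its highest libraries were those of SWR/J (736 CPM) and KK/HlJ (525 CPM). *Muc20* had a log2FC of 6.45 (SE 0.336) at a female median of 4.44 CPM, and *Muc1* one of 3.65 (SE 0.214) at medians of 6.75 and 0.642 CPM. *Muc1* was above 3 counts in 73 of 74 male libraries and *Muc20* in 12.

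*Esrp1* and *Esrp2* encode RNA-binding proteins that keep the epithelial splice forms of many transcripts. *Esrp1* ranged from 0.0682 to 116.9 CPM with a median of 24.3 in females and from 0 to 19.1 CPM with a median of 0.0832 in males, with log2FC 7.29 (SE 0.386), and the female was the higher in 59 of 59 strains. *Esrp2*, which lies near *Cdh1* on chromosome 8 (106130319 to 106136974), had medians of 8.32 and 0.138 CPM and a log2FC of 5.44 (SE 0.292). In males *Esrp1* was above 3 counts in 26 and *Esrp2* in 45 of 74 libraries.

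The 9 transcription factors were all higher in females, with a median log2FC of 4.53 and the broadest range of any role. Grainyhead-like factors hold epithelial junction genes active, and *Grhl1* (chromosome 12, 24572283 to 24617391, plus strand) had the smallest difference of all members. It ranged from 7.37 to 93.3 CPM with a median of 19.99 in females and from 4.36 to 30.1 CPM with a median of 8.44 in males, and its log2FC was 1.35 (SE 0.124, 54 of 59 strains). *Grhl2* ranged from 0.682 to 37.2 CPM with a median of 12.1 in females and from 0.346 to 10.9 CPM with a median of 0.727 in males, with log2FC 3.99 (SE 0.195). Both were above 3 counts in every library. The sexes overlapped widely for *Grhl1*, whose lowest male library (KK/HlJ) belongs to the strain with the highest mean level of the members in females.

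The epithelial ETS factors are *Elf3*, *Ehf* and *Elf5*, the last of which is known for its role in the secretory lineage of the mammary gland. *Elf5* and *Ehf* are neighbours on chromosome 2 (103411688 to 103450989 and 103263433 to 103303278). *Elf5* ranged from 0.273 to 265 CPM with a median of 30.6 in females and from 0.146 to 31.4 CPM with a median of 0.479 in males, with the female higher in all 59 strains (log2FC 5.64, SE 0.269). *Ehf* had medians of 35.99 and 1.52 CPM (log2FC 4.53, SE 0.307). *Elf3* had 9.56 and 0.0299 CPM (log2FC 6.66, SE 0.386), and no counts in 36 of 74 male libraries.

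*Trp63* encodes p63, the factor of basal cells in stratified and glandular epithelia. It ranged from 1.71 to 42.3 CPM with a median of 14.6 in females and from 0.386 to 16.8 CPM with a median of 2.51 in males, and its log2FC of 2.65 (SE 0.190) was the second lowest among the factors. *Ovol1* and *Ovol2*, zinc finger repressors of the mesenchymal state, were the lowest members per length in females, with medians of 0.336 and 0.808 TPM (transcripts per 1000000). Their log2FC were 3.66 (SE 0.271) and 5.60 (SE 0.291). *Ovol2* was above 3 counts in 4 of 74 male libraries, and the homeobox gene *Irx4* in 6. *Irx4* had a female median of 3.79 CPM and a highest male value of 2.65 CPM, in the library labelled male of NZW/LacJ. Over the 9 factors the adjusted p lay between 6.33e-27 and 2.02e-14 (quasi-likelihood test of edgeR, Benjamini-Hochberg adjusted).

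Since all members were higher in females, their promoter windows (250 bases before to 50 after a start, RefSeq, GRCm38.p6) were searched for letters that such factors and the opposing repressors bind, on both strands. Windows were matched for 21 of the 36 genes by symbol, 25 windows in all. CAGGTG, an E-box bound by Zeb and Snail repressors, was present in 14 of the 21 genes (66.7%), and in 22.6% of all 27025 genes with windows. Per window the shares were 64% and 20.2%, at a median GC content of 60.7% in the members' windows and 52.7% in all. CCGGAAGT, bound by ETS factors, was present in 2 genes, *Cldn7* and *Spint1* (9.52%, against 4.31% of all). AACCGGTT, bound by Grainyhead-like factors, was in none of the members' windows and in 0.174% of all genes. A match is a description of the letters, not a site of binding. These windows were chosen after the matches were seen. To show them, the windows of *Ap1m2* (chr9:21312284-21312583, minus strand), *Spint2* (chr7:29281928-29282227, minus strand), *Rab25* (chr3:88548230-88548529, minus strand), which hold repeated CAGGTG letters, and of *Cldn7* (chr11:69965171-69965470, plus strand), with both CAGGTG and CCGGAAGT, follow with the matched letters in capitals.
Ap1m2 promoter: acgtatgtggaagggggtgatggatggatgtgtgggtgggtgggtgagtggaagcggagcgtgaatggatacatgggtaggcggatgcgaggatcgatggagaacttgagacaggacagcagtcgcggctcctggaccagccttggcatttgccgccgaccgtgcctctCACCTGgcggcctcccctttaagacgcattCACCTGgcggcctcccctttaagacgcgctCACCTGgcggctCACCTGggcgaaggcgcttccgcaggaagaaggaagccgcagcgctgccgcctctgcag
Spint2 promoter: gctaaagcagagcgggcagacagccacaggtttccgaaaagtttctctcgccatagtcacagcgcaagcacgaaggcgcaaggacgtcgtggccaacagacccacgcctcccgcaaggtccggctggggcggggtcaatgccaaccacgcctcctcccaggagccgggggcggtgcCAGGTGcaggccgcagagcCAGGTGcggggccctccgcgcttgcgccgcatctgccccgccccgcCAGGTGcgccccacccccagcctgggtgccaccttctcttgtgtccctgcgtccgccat
Rab25 promoter: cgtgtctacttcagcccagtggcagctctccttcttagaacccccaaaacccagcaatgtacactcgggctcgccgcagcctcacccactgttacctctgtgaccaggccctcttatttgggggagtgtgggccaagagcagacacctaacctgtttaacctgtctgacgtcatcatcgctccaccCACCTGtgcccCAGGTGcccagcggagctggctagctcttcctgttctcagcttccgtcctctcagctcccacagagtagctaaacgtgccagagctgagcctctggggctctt
Cldn7 promoter: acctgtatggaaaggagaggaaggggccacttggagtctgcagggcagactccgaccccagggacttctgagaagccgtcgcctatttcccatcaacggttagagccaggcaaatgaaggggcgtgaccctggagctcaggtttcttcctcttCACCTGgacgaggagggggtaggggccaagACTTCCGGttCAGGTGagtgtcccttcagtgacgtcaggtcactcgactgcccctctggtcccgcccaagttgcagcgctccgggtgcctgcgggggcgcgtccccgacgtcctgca

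The remaining members serve membrane traffic and signalling. *Rab25* is a small GTPase of apical recycling, *Ap1m2* encodes the epithelial subunit of the AP-1 sorting adaptor, and *Prom2* a protein of plasma membrane protrusions. *Prom2* ranged from 0 to 121.8 CPM with a median of 21.8 in females and from 0 to 29.3 CPM with a median of 0.0145 in males, with log2FC 7.84 (SE 0.389). *Rab25* had a log2FC of 5.01 (SE 0.242) at medians of 5.01 and 0.146 CPM, and *Ap1m2* one of 4.36 (SE 0.277) at 9.09 and 0.366 CPM. *Wnt7b* encodes a secreted Wnt ligand. It ranged from 0 to 19.6 CPM with a median of 4.81 in females, and 55 of 74 male libraries had no counts (log2FC 6.95, SE 0.368). *Fer1l4*, a gene of the ferlin family, ranged from 0 to 21.2 CPM with a median of 4.52 in females and was at 0 in 48 of 74 male libraries (log2FC 6.87, SE 0.348).

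**Figure D2:**
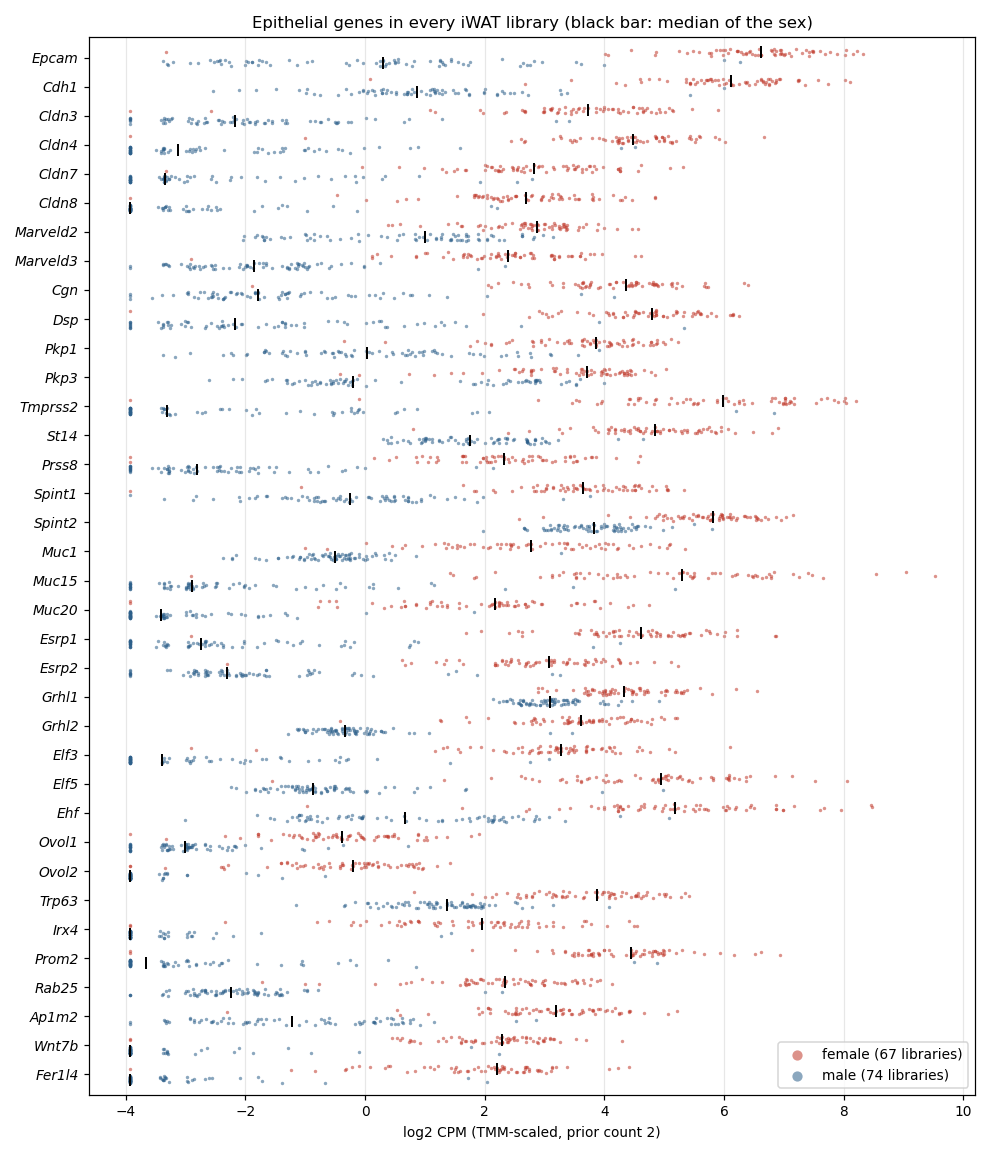
Each point is the log2 CPM of 1 gene in 1 library, red for the 67 libraries labelled female and blue for the 74 labelled male, with the median of each sex as a black bar. The female median is above the male median for all 36 genes, and single points of each sex lie within the range of the other, among them the libraries of NZW/LacJ and PL/J labelled male and of BXD34/TyJ and BXD69/RwwJ labelled female.

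Levels of different genes were compared only per transcript length, in TPM. Among females *Epcam* had the highest median, 97.8 TPM (range 0.0608 to 352), followed by *Spint2* with 62.4 TPM (1.47 to 167). *Tmprss2*, *Elf5*, *Cdh1* and *Muc15* came next with 25.3, 24.1, 23.2 and 20.5 TPM, and *Ovol1* was lowest with 0.336 TPM. The ranges of neighbours in this order overlapped. In males the order was another, with *Spint2* (14.6 TPM) and *Grhl1* (3.72 TPM) at the top, *St14* and *Epcam* at 1.37 and 1.18 TPM, and medians of 0 TPM for *Cldn8*, *Ovol2*, *Irx4*, *Wnt7b* and *Fer1l4*.

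No member had every library labelled female above every library labelled male, and neither had any of all genes tested (0%). BXD69/RwwJ and NZW/LacJ, whose Y-linked levels went against the label, are in this comparison, so its outcome was nearly fixed in advance. Without them, BXD34/TyJ and PL/J, the ranges of the sexes were apart for some members and overlapped for others. PL/J was left out for the high level of the members in its male library, which by itself draws the ranges apart, so this is a description. No share over all genes is given for that setting. With the mean log2 CPM of the 36 genes as the level of a library, females lay between -2.001 and 5.32 (median 3.53) and males between -2.23 and 3.53 (median -1.41). The lowest female levels were those of BXD69/RwwJ (-2.001), BXD34/TyJ (0.52) and BXD24/TyJ-Cep290<rd16>/J (1.22). The highest male levels were those of NZW/LacJ (3.53), PL/J (3.01) and NZB/BlNJ (0.73).

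The PL/J male library had a summed Y-linked level of 177 CPM, far above the female range but the lowest of the 73 libraries labelled male other than NZW/LacJ. The median of all 74 was 329 CPM. The NZB/BlNJ male was low as well (194 CPM). In the PL/J male *Epcam* was at 63.7 CPM, *Cdh1* at 43.3 CPM and *Tmprss2* at 73.3 CPM, against 55.04, 30.2 and 11.5 CPM in the PL/J female. In NZW/LacJ these genes had 76.6, 63.9 and 113.5 CPM in the library labelled male and 113.6, 102.6 and 259.7 CPM in the female. The keratin genes *Krt8* and *Krt14*, of luminal and basal mammary cells, were high in the same male libraries, with 67.4 and 7.70 CPM in PL/J and 101.1 and 18.9 CPM in NZW/LacJ, beside male medians of 0.185 and 0 CPM. The adipocyte gene *Adipoq* had 1412.8 CPM in the PL/J and 530.5 CPM in the NZW/LacJ library, the latter the lowest of all libraries labelled male. At the other end, the male libraries of AKR/J (-2.23), CBA/J (-2.22) and BXD14/TyJ (-2.21) had the lowest levels, with at most 0.108 CPM of *Epcam*.

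The members varied among females more than most genes did. With 1 library per strain, this spread holds differences between strains and between single animals. The SD of log2 CPM over the 67 female libraries was 0.750 (*Grhl1*) to 2.02 (*Muc15*) with a median of 1.33, beside a median of 0.508 over all genes tested. All 36 members lay above the latter. Without BXD34/TyJ and BXD69/RwwJ the medians were 0.964 and 0.452. The highest female levels were those of KK/HlJ (5.32), SWR/J (5.27) and I/LnJ (4.96), all non-recombinant inbred strains. *Epcam* had 299, 322 and 264 CPM there, against 16.6 CPM in BXD24/TyJ-Cep290<rd16>/J. *Krt8* and *Krt14* went with them, at 244 and 61.8 CPM in KK/HlJ and 14.01 and 2.29 CPM in BXD24/TyJ-Cep290<rd16>/J, and their part in the spread was not tested. The male libraries of KK/HlJ, SWR/J and I/LnJ had 0.228, 1.54 and 2.64 CPM of *Epcam*. Among males the median SD of the members was 1.41, and 1.20 without NZW/LacJ and PL/J.

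**Figure D3:**
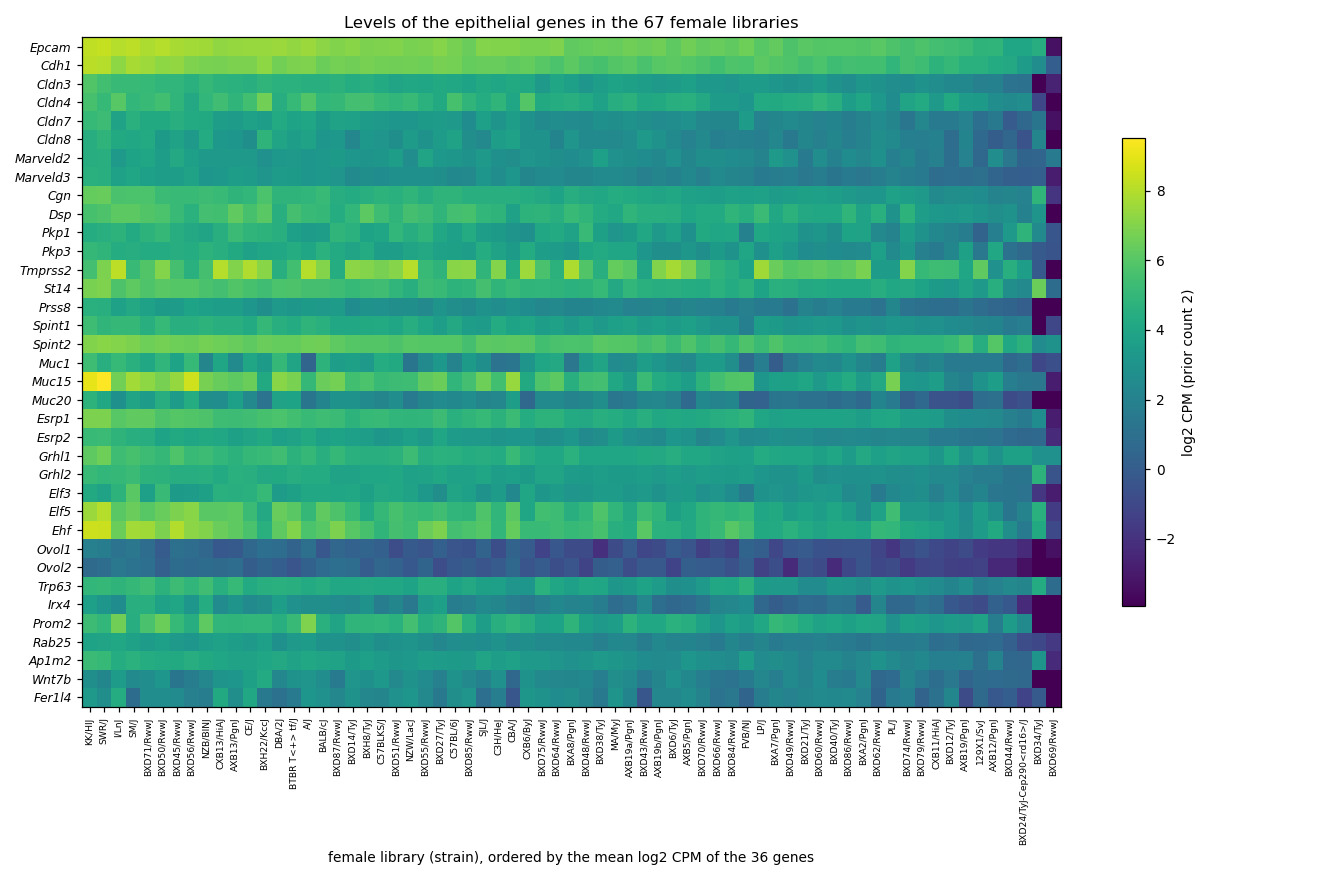
Rows are the 36 genes by role and columns the 67 female libraries, ordered from the highest to the lowest mean log2 CPM of the genes, with colour for log2 CPM. The columns run from KK/HlJ (mean 5.32) to BXD69/RwwJ (mean -2.001), and most rows darken from left to right together.

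To see how far the members varied together among females, each was correlated with *Epcam* in log2 CPM over the 67 female libraries. All 35 were positively correlated, with Pearson's r from 0.63 (*Muc1*) to 0.97 (*Esrp1*) and a median of 0.85. All 35 passed an adjusted p under 0.05 (two-sided permutation test, 100000 resamples, Benjamini-Hochberg adjustment over the 16764 genes tested). Of these genes 15.5% passed in either direction and 9.09% with r above 0. By Spearman's rho, from 0.31 (*Tmprss2*) to 0.97 (*Esrp1*), all 35 passed as well, against 31.7% of all genes in either direction and 18% above 0. The permutation p of r was 1e-05, the smallest that these resamples can give, for 34 members and 4e-05 for *Tmprss2*, whose p of rho was 0.00948. Without BXD69/RwwJ and BXD44/RwwJ, the libraries farthest from the median of *Epcam*, r lay between 0.41 and 0.97. Without BXD34/TyJ and BXD69/RwwJ, r lay between 0.33 (*Tmprss2*, from 0.69 with them) and 0.98 and all 35 passed, but by rho 34 did, and *Tmprss2* no longer did (rho 0.25, adjusted p = 0.113 in the permutation test). Without NZW/LacJ and PL/J the count by rho was 34 too, again without *Tmprss2* (rho 0.29, adjusted p = 0.0557). The members least tied to *Epcam* by rho were *Tmprss2*, *Fer1l4* (0.48) and *Wnt7b* (0.60).

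**Figure D4:**
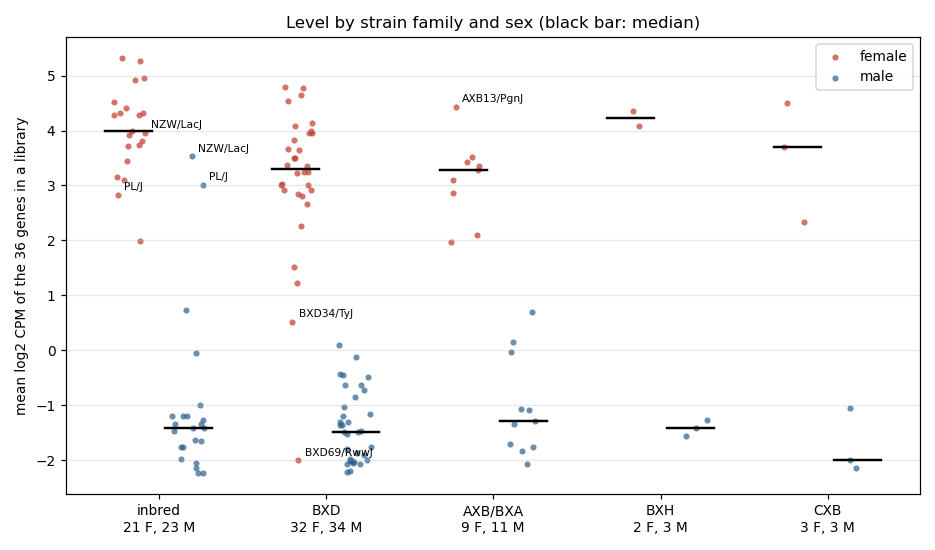
Each point is 1 library, at the mean log2 CPM of the 36 genes (vertical axis) in its strain family, red for female and blue for male, with the median as a black bar. Female medians run from 3.28 in AXB/BXA to 4.22 in BXH. The named libraries are those of NZW/LacJ, PL/J, BXD34/TyJ and BXD69/RwwJ and the female one of AXB13/PgnJ.

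Strain families were compared within each sex. Among females, of 36 members tested, 15 differed between the inbred, BXD and AXB/BXA families, against 12% of all 18281 genes (F test with both family terms, quasi-likelihood test of edgeR, Benjamini-Hochberg adjusted). The BXD minus inbred difference was below 0 for all members but *Pkp1*, with a median of -0.73 on the log2 scale, and the AXB/BXA minus inbred difference was below 0 for all 36, with a median of -0.92. Over all genes these medians were 0.02 and 0.02. The members past the threshold were *Cldn7*, *Cldn8*, *Marveld3*, *Cgn*, *Prss8*, *Spint1*, *Spint2*, *Muc15*, *Esrp1*, *Esrp2*, *Grhl1*, *Elf5*, *Ovol1*, *Rab25* and *Ap1m2*. *Muc15* had 7.49 to 736, median 91.6 CPM in 21 inbred females, 0.0682 to 374, median 38.5 CPM in 32 BXD females and 3.57 to 72.7, median 11.98 CPM in 9 AXB/BXA females (adjusted p = 0.0113, quasi-likelihood test of edgeR, Benjamini-Hochberg adjusted). *Grhl1* had 12.5 to 93.3, median 26.4 CPM, 7.37 to 55.8, median 16.1 CPM and 7.68 to 26.1, median 17.2 CPM in the same order, with adjusted p = 0.00453 in that test with Benjamini-Hochberg adjustment, the lowest of the members. The ranges of the families overlapped for both genes.

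*Elf5*, with log2 differences from the inbred strains of -0.90 in BXD and -1.54 in AXB/BXA, was among those past the threshold. *Epcam* (28.6 to 322, median 129.8 CPM in inbred, 0.0341 to 259, median 80.9 CPM in BXD, 28.9 to 171, median 77.98 CPM in AXB/BXA females) and *Cdh1* were not, with adjusted p of 0.116 and 0.0772 (quasi-likelihood test of edgeR, Benjamini-Hochberg adjusted). The pairs of families were not tested singly. The BXH and CXB females, 2 and 3 libraries, had mean levels of 4.08 to 4.36 and 2.33 to 4.49 and entered no test. With limma-voom 3 of 36 members passed (4.06% of all genes), and without BXD34/TyJ and BXD69/RwwJ, without PL/J, without LP/J or without AXB13/PgnJ between 16 and 18, beside 7.86%, 12.4%, 12.1% and 13.7% of all genes in this order. Of the mammary marker lists, 2 of 9 luminal and 0 of 5 basal genes differed between the families in the same test, and 0 of 5 adipocyte genes did.

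Among males, 27 members passed the filter and 15 of them differed between the families, against 7.07% of all 17631 genes in the same test. This count rested on the library labelled male of NZW/LacJ. Without it the count was 3 of 27 (*Cldn4*, *Tmprss2* and *Esrp2*), beside 5.8% of all genes, without both NZW/LacJ and PL/J, the latter chosen by its high level of the members, it was 4 of 25 (*Cldn7*, *Spint1*, *Spint2* and *Esrp2*), beside 5.81%, and with limma-voom it was 0 of 27, beside 5.06%. *Epcam* had 0.0355 to 76.6, median 1.40 CPM in 23 inbred males, 0.0365 to 7.66, median 1.16 CPM in 34 BXD males and 0.0304 to 15.8, median 0.846 CPM in 11 AXB/BXA males.

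The sex difference itself was compared between the 26 matched BXD and the 20 matched inbred strains by an interaction term. No member passed the adjusted threshold, as no gene of all 16754 did (0%, quasi-likelihood test of edgeR, Benjamini-Hochberg adjusted), and 1 member, *Spint1*, had an unadjusted p under 0.05 beside 3.23% of all genes. Limma-voom also called 0, with 2 members under an unadjusted 0.05 (3.87% of all genes) and a median interaction of 0.17, on the other side of 0. For *Spint1* the female minus male difference was -1.22 in BXD relative to inbred strains on the log2 scale (SE 0.509, adjusted p = 0.9998, quasi-likelihood test of edgeR, Benjamini-Hochberg adjusted). Over the members the median interaction was -0.15 and the SE ranged from 0.285 to 1.35. Without NZW/LacJ and PL/J the median was -0.62, with 10 of 36 members at an unadjusted p under 0.05, beside 7.91% of all genes in the same fit, and 0 past the adjusted threshold. Of all genes 1 passed it. PL/J was chosen to be left out by the level of the members themselves, so this setting is a description.

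Whether strains with high female levels also had high male levels was tested over the 59 matched strains. None of the 36 members passed, with Pearson's r between -0.17 (*Grhl2*) and 0.22 (*Pkp3*) and a median of 0.01, while 51.4% of all 16765 genes passed and their median r was 0.30 (two-sided permutation test, 100000 resamples, Benjamini-Hochberg adjustment over all genes). Spearman's rho lay between -0.22 and 0.18, with 0 members past the threshold and 53% of all genes (52.9% above 0). At an unadjusted p under 0.05 there were 0 members by r and 0 by rho. For *Epcam*, r was 0.13 (permutation p = 0.343) and rho 0.18 (permutation p = 0.176), and r was 0.13 without the strains farthest from the female median, BXD44/RwwJ and BXD24/TyJ-Cep290<rd16>/J. Many members were at the floor in males. The 7 members above 3 counts in every male library, *Marveld2*, *St14*, *Spint2*, *Grhl1*, *Grhl2*, *Elf5* and *Trp63*, had r from -0.17 to 0.18. Without NZW/LacJ and PL/J, r of the 36 members lay between -0.22 and 0.24, and none passed.

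**Figure D5:**
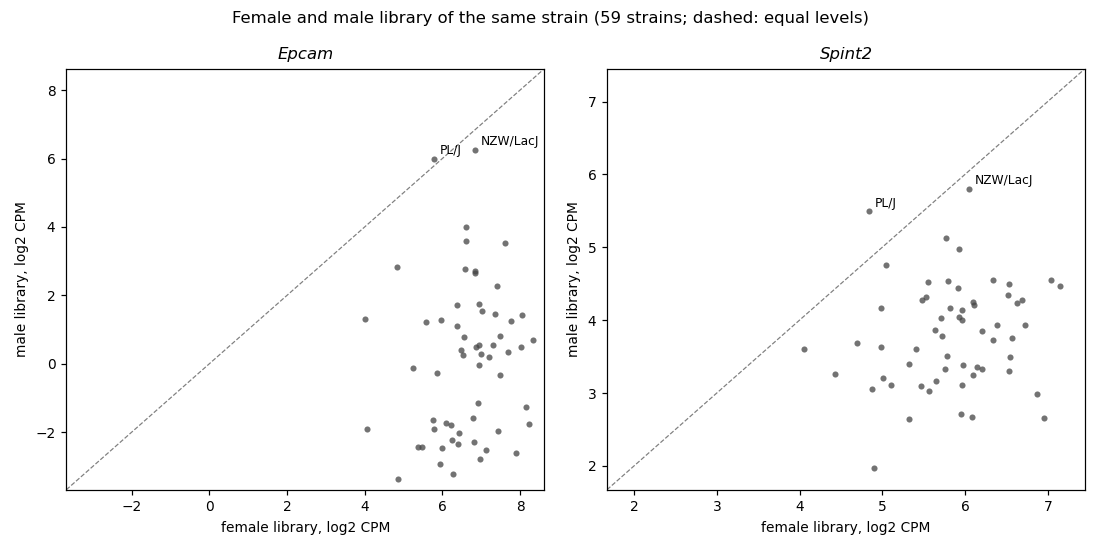
Each point is 1 of 59 strains, at the log2 CPM of its female library (horizontal axis) and its male library (vertical axis), for *Epcam* and *Spint2*, and the dashed line marks equal levels. Nearly all points lie below the line, those of NZW/LacJ and PL/J are near it, and r was 0.13 for *Epcam* and 0.14 for *Spint2*.

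Most other epithelial genes were higher in females too. Of 20 further genes of junctions, hemidesmosomes and polarity, 19 were tested, 17 were higher and 1 was lower in females (quasi-likelihood test of edgeR, Benjamini-Hochberg adjusted), with a median log2FC of 2.86. The polarity gene *Llgl2* had the lowest log2FC (-0.16). Plakoglobin (*Jup*), which also serves junctions of other cell types, had medians of 110.1 and 120.3 CPM and did not pass (log2FC -0.07). Of 6 repressors of the epithelial state, 4 were lower in females, among them *Zeb1* (log2FC -0.30), 1 was higher and 1 did not pass. Of all genes tested, 29.8% were lower and 28.4% higher in the same test, so the count over 6 repressors says little by itself. *Zeb2* had the lowest log2FC (-0.52) and *Snai2* the highest (0.54).

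Marker genes of cell types that an inguinal pad can hold moved as follows. All 9 luminal mammary markers and all 5 basal ones were higher in females, as 28.4% of all genes were, with median log2FC of 6.90 and 6.89. The summed level of the luminal list was 3.10 to 1885 CPM in females (median 481) and 1.05 to 500.0 CPM in males (median 2.90). That of the basal list was 80.3 to 849.9 and 51.7 to 894 CPM, and in males the medians of its defining keratins *Krt5*, *Krt14* and *Krt17* were 0. Their part in the members' sex difference was not tested.

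The epidermal genes *Krt1*, *Krt2* and *Lor* had medians of at most 0.0685 CPM in either sex. Of 8 epidermal genes 4 were tested, of which 2 were higher and 1 lower in females, and their summed level had medians of 20.2 CPM in females and 16.4 CPM in males. The LP/J female library stood apart, with 35.4 CPM of *Krt1* and 22.8 CPM of *Flg*, where *Trp63* (10.6 CPM), *Pkp1* (17.2 CPM) and *Dsp* (37.2 CPM) were within the range of the other females. LP/J has no male library and is outside the matched comparison. Of the hair follicle list 1 of 1 tested genes was higher in females (*Tchh*), of the sebaceous list 1 of 2 (*Awat2*), and of the mesothelial list 1 of 1 (*Lrrn4*), with 5, 2 and 2 genes too low to test. All 5 adipocyte, 3 endothelial and 3 macrophage genes were lower in females, as 29.8% of all genes were, with median log2FC of -0.61, -0.33 and -0.73. None of 6 lymph node genes passed, and 1 of 4 tested muscle genes (*Pvalb*) was lower in females (quasi-likelihood test of edgeR, Benjamini-Hochberg adjusted for all lists).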

How the data were processed

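mRNA libraries of subcutaneous adipose tissue, named iWAT by the study, were sequenced by the authors as stranded, paired-end reads of 100 bases (KAPA mRNA HyperPrep), pseudoaligned to the Ensembl release 97 transcriptome of GRCm38 (kallisto 0.46.1 per the submitters' processing notes) and collapsed from transcripts with tximport. Estimated counts as deposited are not normalized between libraries, and 30.3% are not whole numbers, since reads are split between transcripts by probability. The deposited TPM values take transcript length into account and carry no depth. Symbols and positions came from GENCODE M21, which is 1 Ensembl release older than the transcriptome.

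Estimated counts were rounded. Genes were kept by filterByExpr of edgeR 4.0.16 (R 4.3.3), scaled by TMM and tested by its quasi-likelihood F test, with Benjamini-Hochberg adjustment over all genes, at 0.05: sex in the model Strain + Sex over 59 matched strains, family among females and among males, and the interaction of sex and family. A replicate is a strain. In the family tests, p-values measure the spread between strains within families. The sex and interaction tests compare the libraries of matched strains, so their p-values measure how the female minus male difference varies across strains. With a single library per sex and strain, these spreads also hold differences between animals. Each SE was derived from the test, as the absolute log2 difference divided by the square root of its F value. Levels are CPM, and log2 CPM carries a prior count of 2. Correlations were tested by permutation. They were adjusted over all genes, although an adjustment over the members alone was first planned.

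Both libraries of a strain deviated together from the mean of their sex (mean correlation 0.41, against -0.00715 for different strains, above 0.1 in 45 of 59), and the pairing comes from the strain names. No pair of libraries agreed within counting noise. The tests were tried on simulated counts before use, where the family test among males called more unchanged genes than its threshold allows. The sex test lay slightly over the threshold there. The labels name no batch. The members, the lists of other genes and the tests were chosen with earlier results of these data known. All members are named, and of other lists the genes with the highest and lowest log2FC or the highest mean, except 1 that is not reported here, beside markers that show the makeup of single libraries. Alternatives were DESeq2 1.42.0, limma 3.58.1 (voom, and on log2 TPM with a pseudocount of 1 or 0.1), other scalings and filters, no strain term, and leaving out libraries that stand apart.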

Additional observations from a re-analysis of the deposited data

Results flagged for a closer look

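The AXB13/PgnJ female library stood apart from the other AXB/BXA females in CPM. In 20 of the 36 members its value was the highest of the 9 and its gap to the next was over 0.493 of the whole range (Dixon's test for a stray value). The values in CPM were 171 for *Epcam*, 117.1 for *Cdh1*, 25.003 for *Cldn3*, 12.1 for *Marveld3*, 76.3 for *Dsp*, 37.6 for *Pkp1*, 58.03 for *St14*, 11.6 for *Prss8*, 83.9 for *Spint2*, 72.7 for *Muc15*, 12.6 for *Muc20*, 39.2 for *Esrp1*, 24.3 for *Grhl2*, 23.2 for *Elf3*, 71.7 for *Elf5*, 73.2 for *Ehf*, 34.1 for *Trp63*, 8.03 for *Irx4*, 11.5 for *Rab25* and 13.9 for *Ap1m2*. For *Epcam* the next library had 98.04 CPM. For normally distributed values chance gives such a gap in about 1 group in 20. The gaps were taken in CPM and not in log2 CPM, so that rate need not hold here. These members share 1 library, so the 20 are not independent of each other. Without this library 18 of 36 members differed between the families among females, against 15 with it. The mean log2 CPM of the 36 members was 4.44 there, below that of KK/HlJ, SWR/J and I/LnJ.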

How the results depend on the processing

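The sex difference kept its direction and its call for every member tested under each alternative, strain left out included. Without the strain term (no replicate block) 36 of 36 were called over the 59 strains and 36 over the libraries of all strains, and the median log2FC was 4.49 and 4.57 instead of 5.52. It was 5.72 with DESeq2, 5.13 with limma-voom, 4.21 on log2(TPM + 0.1) and 5.64 with library totals, which moved the median of all genes from 0.01 to 0.12 and the split of all genes from 4759 higher and 4988 lower to 7410 and 2774. The family difference among females fell from 15 members to 3 with limma-voom (742 of all genes, against 2189), and the cause was not tested. Over all genes it was 3717 with no filter and 1431 without BXD34/TyJ and BXD69/RwwJ. Among males 15 members became 0 with limma-voom, 23 of 36 with no filter (2282 of all genes, against 1247), 3 without NZW/LacJ and 4 without NZW/LacJ and PL/J. The causes were not tested beyond the libraries left out. The interaction and the correlation between the sexes called no member under any alternative, and the correlation with *Epcam* called all 35 in each by r. By rho it called 34 without BXD34/TyJ and BXD69/RwwJ and 34 without NZW/LacJ and PL/J, *Tmprss2* being lost in both. For single members, the sex log2FC, the family tests, the correlations with *Epcam* and the interaction of *Spint1* were followed. Of these values, 52 lost and 8 gained the threshold, and none of those with a sign reversed it. Signs of the other members' interactions and of the correlations between the sexes were not followed. Leaving out LP/J or AXB13/PgnJ, and NZW/LacJ with PL/J among males, was chosen after the data were seen. Depth limits the male levels, which lie near the floor of 3 counts for many members.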

Other observations

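The members fell into closer and looser pairs among females. Over the 67 female libraries, 611 of 630 pairs of members had Pearson's r above 0.5 in log2 CPM, with a median of 0.78, and over the 74 male libraries the median was 0.58. These values are a description, since all pairs share the same libraries and depths. The claudin gene *Cldn3* was closest to the prostasin gene *Prss8* (r 0.98), and *Cdh1* to the splicing factor gene *Esrp2* (0.97). The ETS factor *Ehf* was closest to the mucin *Muc15* (0.95), and *Cldn4* to the ligand *Wnt7b* (0.94). *Muc15* and *Ehf* also had the largest AXB/BXA minus inbred differences among females, -2.72 and -1.80 on the log2 scale, of which that of *Muc15* belongs to a gene past the threshold of the family test and that of *Ehf* does not (adjusted p = 0.0639, quasi-likelihood test of edgeR, Benjamini-Hochberg adjusted).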
